A study of Drosophila melanogaster with 56 samples.

Results

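Line 21 and line 5 are independently made Drosophila melanogaster lines of the same genotype, Obp50cBCD, and their whole-fly transcriptomes were compared with each other. The members of the comparison were chosen from the labels and from the set of libraries that the study kept, and were 7 of the 56 libraries of the series. Line 21 had 4 libraries, the females 25_S42 and 26_S43 and the males 27_S44 and 28_S12. Line 5 had 3 libraries, the female 58_S48 and the males 57_S47 and J3_S53. A further line 5 female, 55_S45, stayed out of the comparison except where it is said to be added, and its values are given beside the results. The study had set that library aside because it did not group clearly with other females. Each library was made from a pool of 30 mated adults of 1 sex.

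In genotype Obp50cBCD, Obp50a and Obp50d carry premature termination codons, Obp50b carries the missense allele labelled CD, and Obp50c is intact. Both lines also share everything that was done to make them: in Canton S (B) flies the Obp50a to Obp50d cluster was cut out by CRISPR-Cas9 and replaced by an attP site, and a mutated copy of the cluster was put back at that site with PhiC31 integrase. The series holds 14 such lines of 8 genotypes, and 12 lines of the other 7 genotypes, with 47 libraries used in the study, served as a reference for where each line lay. Since the alleles at the cluster were the same in line 21 and line 5, the comparison asks how far lines of 1 genotype differ from each other. Nothing in the labels gives a name to any other difference between the lines.

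Odorant-binding proteins are small secreted proteins that carry hydrophobic molecules. Many are found in the fluid around chemosensory neurons, where they are thought to bring odorants and tastants to receptors, and others are made in reproductive and digestive tissues. In RNA from whole flies the transcripts of muscle, fat body, gut, eye and gonads make up much of the signal, while receptors used by a few sensory neurons lie close to the detection limit. A fall in a tissue's transcripts in such RNA cannot be told apart from fewer cells of that tissue.

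The 7 libraries held 14638498 to 53517693 counted fragments. All 4 libraries of line 21 were deeper (27515193 to 53517693) than the 3 of line 5 (14638498 to 20051089). The file headers place the 4 libraries of line 21 in a first set, 57_S47 and 58_S48 in a second set and J3_S53 in a set named redo, so within this genotype line and library set cannot be told apart. Levels are given as CPM, counts per 1000000 after scaling by trimmed mean of M values (TMM) over the 56 libraries, and line differences as log2 of line 21 over line 5. Yolk, chorion, seminal fluid and testis transcripts matched the labelled sex of each of the 7 libraries.

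Library J3_S53 stood apart from its replicate. Its log2(CPM + 1) values had a Pearson correlation of 0.953 over genes with 57_S47, the other line 5 male, and 155 genes differed more than 4-fold between them. The same values were 0.996 and 6 genes for the line 21 males, and 0.995 and 14 genes for the line 21 females. The 20 tested genes of the mitochondrial genome summed to 338 CPM in J3_S53 and to 27000 CPM in 57_S47, while the males of the other 12 lines ranged from 2760 to 50500 CPM. In the scaling of the 7 libraries alone its TMM factor was 1.36 against 0.863 to 1.08 in the other 6 libraries. Counts of called genes by group are therefore given with and without it.

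A total of 6 genes passed the test of line 21 against line 5 with sex as a block, at a false discovery rate (FDR) of 0.05 in edgeR's quasi-likelihood test over 15675 genes. That is 0.0383% of the genes tested, with 3 higher in line 21 (0.0191%) and 3 higher in line 5 (0.0191%). They were lncRNA:CR45216, CG6059 and CG32368, higher in line 5, and lncRNA:CR44619, CG11911 and Mpcp1, higher in line 21. None of the 6 overlapped between the lines in either sex, and 55_S45 lay on the side of line 5 for each. At an unadjusted p under 0.05 there were 3829 genes, the gene after the called ones had an FDR of 0.0653, and 1117 genes had an FDR under 0.1. The fit had 4 residual degrees of freedom, and the biological variation within the lines, as edgeR's common dispersion, was 0.089.

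The most marked difference was in lncRNA:CR45216, a long non-coding RNA gene at 3R:24835604-24836238 on the plus strand (coordinates here are those of FlyBase release 6.13). Its levels were 0.11 and 0.0659 CPM in line 21 females and 0 and 0.0936 CPM in line 21 males. In line 5 they were 102 CPM in the female, 8.58 and 14.5 CPM in the males, and 52.9 CPM in the left-out female. The transcript was therefore plainly present in every line 5 library and close to absent in every line 21 library. Line 21 had 10 counts in all and line 5 had 2482, a ratio per counted fragment of 657 (95% exact interval 357 to 1370, which covers counting error only). The fitted difference was −9.15 ± 0.55 (SE; FDR 0.00189), a value that depends on how a count near 0 is treated. In the other 12 lines the highest line mean was 0.585 CPM in females and 0.405 CPM in males, so line 5 was the line that stood apart: its difference from the 12 lines was 8.91 (FDR 1.2e-18), and that of line 21 was 0.08 (FDR 0.868).

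CG6059, at 3R:27121618-27124688 on the minus strand, was also higher in line 5. In males it was 49.1 and 49.5 CPM in line 21 and 230 and 349 CPM in line 5. Line 21 females had 0.658 and 0.395 CPM and the line 5 female 5.96 CPM, with 32.6 CPM in 55_S45. Both sexes were thus higher in line 5 although the male level was far above the female level in each line, and the fitted difference was −2.94 ± 0.27 (FDR 0.0188). The males of the other 12 lines lay between 37.1 and 55.5 CPM as line means, the range in which line 21 fell. Their females spread from 0.421 to 80.2 CPM and so took in both lines.

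For the short gene CG32368, at 3L:7915437-7915846 on the plus strand, it was line 21 that lay away from the rest. Line 21 females had 70.5 and 56.4 CPM against 155 CPM in the line 5 female, and males had 14.5 and 12.9 CPM in line 21 and 56.6 and 41.1 CPM in line 5. The fitted difference was −1.70 ± 0.18 (FDR 0.0429). Means of the other lines were 121 to 325 CPM in females and 27.7 to 128 CPM in males, so that both line 21 sexes were below all of them. Against those 12 lines line 21 differed by −1.91 (FDR 2.98e-06) and line 5 by −0.35 (FDR 0.406).

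Among the genes higher in line 21, lncRNA:CR44619 (X:12751867-12754571, plus strand) changed most. This long non-coding RNA was at 197 and 214 CPM in line 21 females against 18.3 CPM in the line 5 female, and at 35.8 and 19.5 CPM in line 21 males against 4.45 and 2.81 CPM in line 5 males. Every line 5 library, 55_S45 at 21.6 CPM included, lay below both line 21 libraries of its sex. The fitted difference was 3.09 ± 0.29 (FDR 0.0188). Line means elsewhere were 74.4 to 569 CPM in females and 26.6 to 172 CPM in males, and line 5 differed from them by −3.94 on the log2 scale (FDR 1.37e-06).

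CG11911, at 2L:320279-321248 on the minus strand, had 196 and 237 CPM in line 21 females and 67.9 CPM in the line 5 female. Its male levels were 46 and 42.2 CPM in line 21 and 7.14 and 10.4 CPM in line 5. The fitted difference was 1.97 ± 0.22 (FDR 0.0429). Here too line 5 was the low line, since the other lines ranged over 128 to 302 CPM in females and 29.5 to 52.6 CPM in males.

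Mpcp1 encodes a carrier that moves phosphate into mitochondria for ATP synthesis, and lies at 2R:20279066-20281127 on the minus strand. It was at 502 and 505 CPM in line 21 females and 148 CPM in the line 5 female. In males the levels were 1130 and 962 CPM in line 21 and 412 and 291 CPM in line 5. Line 21 was higher in both sexes by a fitted 1.58 ± 0.17 (FDR 0.0429). Against line means of 137 to 356 CPM (females) and 358 to 801 CPM (males) in the other lines, line 21 was above all of them in both sexes, with a difference of 1.15 (FDR 3.84e-09) from their mean, and line 5 one of −0.52 (FDR 0.0147).

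**Figure D1:**
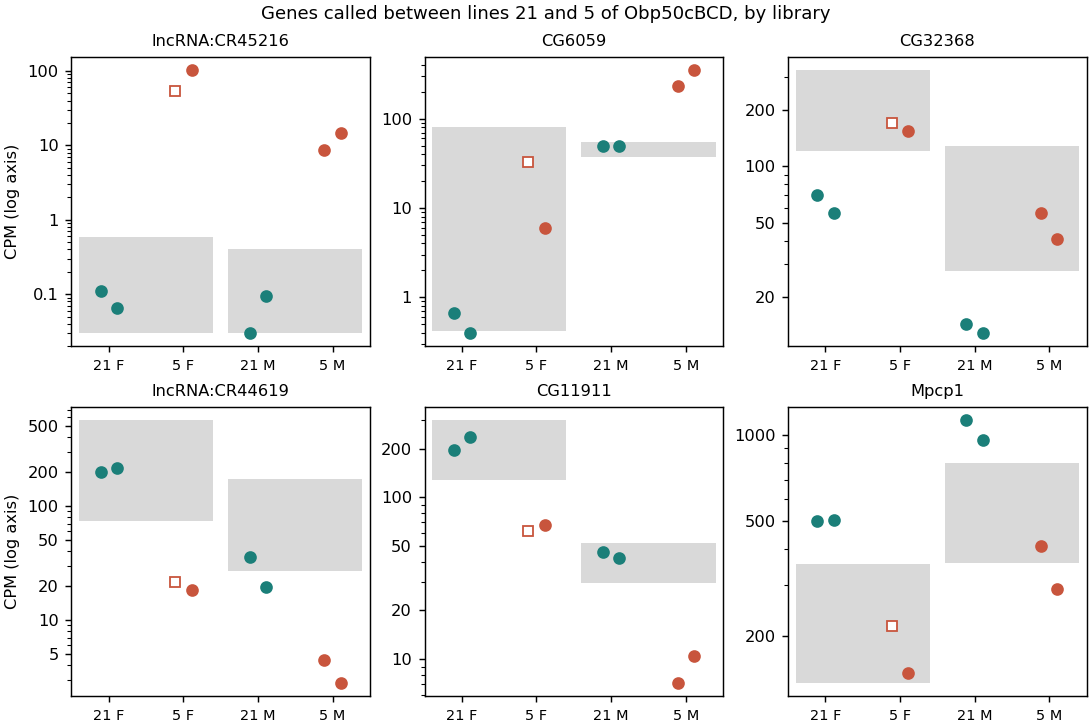
Levels of the 6 genes called between line 21 (green) and line 5 (red), as CPM on a log axis, with 1 panel a gene and 1 point a library by line and sex (F, M), an open square for the left-out 55_S45, and grey bands for the range of the line means of the other 12 lines. Within a sex the lines do not overlap in any panel, and lncRNA:CR45216 is at 8.58 CPM or more in line 5 and at 0.11 CPM or less in line 21, with the value of 0 drawn at the bottom of its panel.

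How many genes were called depended on single libraries. Leaving out 1 library at a time gave between 0 and 1122 calls: 0 without 25_S42 (3120 genes at an unadjusted p under 0.05), 1 without 26_S43 or without 27_S44, 2 without 28_S12, 54 without 58_S48, 138 without J3_S53 and 1122 without 57_S47. lncRNA:CR45216 was called in 6 of these 7 fits, lncRNA:CR44619 in 4, CG6059, CG32368 and CG11911 in 3 each, and Mpcp1 in 2. DESeq2's Wald test called 1972 genes and limma-voom 273. Males alone gave 4 calls (0.0255%) and females alone, with 58_S48 as the only line 5 library, 2761 (17.6%).

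Both lines carry an intact Obp50c, and its transcript was measured at similar levels in their males. Obp50c was at 10.4 and 11.3 CPM in line 21 males and 13.3 and 6.30 CPM in line 5 males, within or near the 9.81 to 12.4 CPM of the other lines' means. Females had 0.0989 to 0.314 CPM in the 3 libraries compared. The lines overlapped in males and the difference of −0.21 ± 0.37 did not pass (FDR 0.758). Obp50b was listed at 0 in all 56 libraries and could not be tested, so the missense allele could not be checked from these counts.

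The other genes of the cluster (2R:14369217-14375385) and its flanks were at 1.57 CPM or less in the 7 libraries compared and in 55_S45. Obp50a, with 2, 1, 4 and 7 counts in line 21 and 3, 0 and 27 in line 5, differed by −2.04 ± 1.2 (FDR 0.325). Obp50d, with 1, 2, 11 and 34 counts in line 21 and 4, 19 and 1 in line 5, differed by −0.46 ± 0.93 (FDR 0.792). Obp50e and CG34444 had differences of −3.23 ± 0.84 (FDR 0.0939) and −3.22 ± 0.91 (FDR 0.101), and CG34185 had one of 0.94 ± 0.77 (FDR 0.478). In the fit over 54 libraries described next, Obp50e (−3.0; FDR 0.0284) and CG34444 (−3.41; FDR 0.0229) were called higher in line 5. Without J3_S53 the FDR in that fit was 0.167 for Obp50e and 0.0218 for CG34444, and with library set as a term it was 0.0999 and 0.385. These calls rest on few counts, 2, 1, 3 and 5 in line 21 and 30, 17 and 2 in line 5 for CG34444, and on 3, 2, 1 and 4 against 9, 6 and 29 for Obp50e. CG34444 overlapped in males, and reached a line mean of 32.3 CPM in females of the other lines.

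Many more genes were called in a fit that took its spread from more libraries. When the 7 libraries were fitted together with the 47 libraries of the other lines, 3424 genes (21.8%) were called between line 21 and line 5, 2396 higher in line 21 (15.3%) and 1028 higher in line 5 (6.56%). All 6 genes above were among them, and the common dispersion of that fit was 0.0538, against 0.089 in the 7 libraries alone. The line 5 males differed more from each other than the line 21 males did. Whether the smaller spread suits line 5 was not tested. The direction of the split depends on scaling: when DESeq2's size factors replaced TMM, 48.2% of 2748 calls were higher in line 21 and not 70%, as the median difference of all genes moved from 0.07 to −0.09. The calls were then 8.45% of genes tested in favour of line 21 and 9.08% in favour of line 5. Each gene group is therefore read below against the median of all genes under the same scaling. Without J3_S53 this fit called 2148 genes, of which 10.1% and 3.62% of the genes tested were higher in line 21 and in line 5.

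A stricter count kept the genes called in that fit and in each of its 8 variants (6 libraries left out in turn, 55_S45 added, other scaling) whose CPM did not overlap between the lines within either sex. It held 1334 genes (8.51%), 1094 higher in line 21 (6.98%) and 240 higher in line 5 (1.53%). Library set as a term, with which the fit called 1882 genes, was not among the 8 variants. The genes of the stricter count did not have to pass with it. By the non-overlap of CPM alone, 3472 genes (22.1%) were higher in line 21 and 1990 (12.7%) higher in line 5. Gene groups below are described by the calls of the fit over 54 libraries, with the count without J3_S53 beside them. The genes named within groups were chosen after their values were seen, as the members with the smallest p, and none of them passed the test over the 7 libraries alone.

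The clearest pattern was with expression level. Genes at 100 to 300 CPM in the other lines had a median line difference of 0.29 in favour of line 21 (1430 genes), and the 627 genes above them had one of 0.24. Genes under 0.3 CPM had a median of −1.55 (1254 genes) and those from 0.3 to 1 CPM one of −1.05 (1672 genes), in favour of line 5. The medians of the bins between rose in order, from −0.51 at 1 to 3 CPM through −0.16 and 0.05 to 0.20 at 30 to 100 CPM.

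Within each sex the medians rose in the same order up to 30 to 100 CPM, and both bins above that were also in favour of line 21. In the lowest bin the median was −1.79 in males and −1.0 in females, and at 100 to 300 CPM it was 0.25 in males and 0.29 in females. Without J3_S53 the lowest bin was at −1.02 and the 100 to 300 CPM bin at 0.22, so the order held with 57_S47 as the only line 5 male. In the lowest bin 164 genes were called higher in line 5 and 4 higher in line 21, while at 100 to 300 CPM 14 were higher in line 5 and 626 higher in line 21.

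Set against the other 12 lines, line 5 lay further out than line 21 at both ends. The median difference in the lowest bin was 1.12 for line 5 and −0.14 for line 21, and in the 100 to 300 CPM bin it was −0.26 for line 5 and 0.08 for line 21. Line 5 libraries were also the shallower ones, and came from the second and redo sets. The part of depth, library set and RNA quality in this pattern was not tested.

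**Figure D2:**
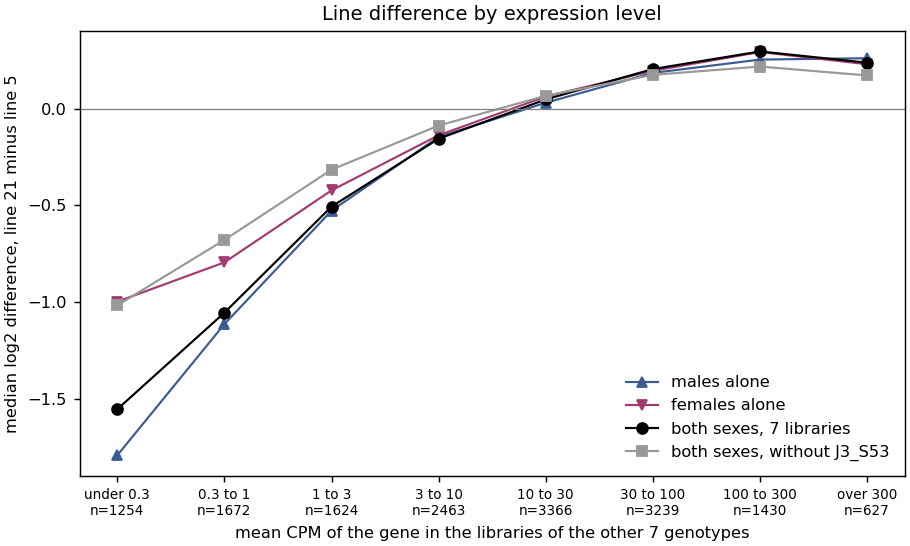
Median log2 difference (line 21 minus line 5) on the vertical axis for genes grouped on the horizontal axis by their mean CPM in the other genotypes, for both sexes together (black), males (blue), females (purple), and both sexes without J3_S53 (grey). For both sexes the medians run from −1.55 for genes under 0.3 CPM to 0.29 for genes at 100 to 300 CPM, and the lines cross 0 between 3 and 30 CPM.

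Muscle transcripts were higher in line 21. Of 23 tested genes for the contractile apparatus, 17 were called higher in line 21 and none higher in line 5 (11 and 0 without J3_S53, 12 and 0 with size factors). The group's median difference was 0.61 against −0.01 for all genes, at 0.62 in males and 0.62 in females. Over all tested members the group summed to 14700 and 12800 CPM in line 21 females and 8800 CPM in the line 5 female. In males the sums were 37400 and 38800 CPM in line 21 and 28200 and 14900 CPM in line 5, without overlap. The group's genes are abundant, with a median level of 621 CPM in the other lines, and so lie in the range where most genes were higher in line 21. The share called higher in line 21 was 73.9%, above the 36.7% of all genes over 300 CPM, which had a median of 0.24.

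Zasp52, which encodes a Z-disc protein of the sarcomere, was at 1000 and 782 CPM in line 21 females and 353 CPM in the line 5 female. Its males had 2330 and 2320 CPM in line 21 and 1290 and 1090 CPM in line 5. Line 21 was thus higher in every library of both sexes, by 1.15 ± 0.11 (SE) in the fit over 54 libraries (FDR 4.88e-08). Prm, which encodes the thick filament protein paramyosin, followed with 579 and 575 CPM against 315 CPM in females, and 1720 and 1810 CPM against 1040 and 589 CPM in males (1.00 ± 0.14; FDR 1.47e-05). Act79B and Act57B, which encode muscle actins, had differences of 0.96 (FDR 0.000225) and 0.75 (FDR 0.000101). Unc-89, the fly obscurin gene, was not on the list and had one of 1.23 (FDR 7.11e-07).

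Transcripts of mitochondrial energy metabolism made in the nucleus moved the same way. Among 77 nuclear genes for respiratory chain and ATP synthase subunits, 38 were called higher in line 21 and 2 higher in line 5 (37 and 0 without J3_S53, 20 and 3 with size factors). The median difference was 0.38, at 0.40 in males and 0.28 in females. The share called higher in line 21 was 49.4%, beside 43.8% of all genes at 100 to 300 CPM. The group's median level in the other lines, 107 CPM, lies in that bin. UQCR-C1, a core subunit gene of complex III, had 650 and 720 CPM in line 21 females and 440 CPM in the line 5 female. Males had 757 and 601 CPM in line 21 and 306 and 307 CPM in line 5, so the libraries compared were apart in both sexes (0.89 ± 0.14; FDR 6e-05), while 55_S45, at 651 CPM, lay with line 21. ATPsyngamma, ND-18 and SdhB, which encode subunits of ATP synthase, complex I and complex II, differed by 0.83 (FDR 7.65e-05), 0.87 (FDR 7.62e-05) and 0.85 (FDR 8.06e-05).

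Nc73EF and mAcon1, which encode enzymes of the citric acid cycle and were on none of the lists, had some of the smallest p in the fit over 54 libraries. Nc73EF, for a subunit of 2-oxoglutarate dehydrogenase, was at 753 and 792 CPM in line 21 females and 359 CPM in the line 5 female. Its male levels were 1900 and 1640 CPM in line 21 and 873 and 802 CPM in line 5. Line 21 was higher in all of its libraries, by 1.09 ± 0.12 (FDR 3.45e-07). mAcon1, the mitochondrial aconitase gene, was higher by 1.17 ± 0.14 (FDR 1.23e-06). Against the other 12 lines, line 21 was above them for Nc73EF by 0.66 (FDR 9.15e-08) and for mAcon1 by 0.85 (FDR 1.01e-08), and the differences of line 5 were −0.43 (FDR 0.00296) and −0.32 (FDR 0.0409).

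For transcripts of the mitochondrial genome itself the outcome rested on single libraries. Of the 20 tested, none was called in either direction, but without J3_S53 2 were called higher in line 5 and without 57_S47 10 were called higher in line 21. The median difference was 1.06 in males and −1.52 in females. Their summed level was 21600 and 36200 CPM in line 21 females and 84000 CPM in the line 5 female, with 130000 CPM in 55_S45. In males it was 34100 and 17500 CPM in line 21 and 27000 and 338 CPM in line 5. The sexes thus differed in direction, and the males rested on J3_S53. In females of the other lines these sums ranged from 9460 to 66100 CPM.

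Fat body and storage genes were mostly higher in line 21 too. Of 22 tested genes for lipid and sugar storage, 9 were called higher in line 21 and none higher in line 5 (9 and 0 without J3_S53, 7 and 1 with size factors), with a median difference of 0.29. The share called higher in line 21 was 40.9%, near the 43.8% of all genes at 100 to 300 CPM. The group's median level of 146 CPM lies in that bin. GlyP, which encodes the glycogen phosphorylase that releases glucose from glycogen, had 1120 and 1180 CPM in line 21 females against 706 CPM in the line 5 female. Males had 1460 and 1330 CPM in line 21 against 771 and 600 CPM in line 5, again without overlap (0.87 ± 0.12; FDR 7.56e-06). whd, the gene of the carnitine palmitoyltransferase that admits fatty acids to mitochondria, FASN1, a fatty acid synthase gene, and Treh, the trehalase gene, differed by 0.69 (FDR 3.89e-05), 0.63 (FDR 0.000664) and 0.52 (FDR 0.00128).

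Digestive enzymes of the gut were called higher in line 21 in 17 of 51 tested genes and higher in line 5 in 1 (15 and 1 without J3_S53, 13 and 1 with size factors). The median difference was 0.27. The share called higher in line 21 was 33.3%, near the 32.3% of all genes at 30 to 100 CPM. The group's median level of 56.4 CPM lies in that bin. betaTry, a trypsin gene expressed in the midgut, was at 1300 and 1500 CPM in line 21 females and 436 CPM in the line 5 female. In males it had 1560 and 1120 CPM in line 21 and 428 and 399 CPM in line 5. The difference was 1.69 ± 0.23 (FDR 7.51e-06), and against the other 12 lines that of line 21 was 1.21 (FDR 3.95e-08) and that of line 5 was −0.48 (FDR 0.0599). alphaTry and the lipase gene mag had differences of 1.06 (FDR 0.00137) and 1.07 (FDR 0.000302).

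With library set as a term in the fit over 54 libraries, which calls 8.06% of genes higher in line 21 and 3.94% higher in line 5, the digestive group fell to 3 genes higher and 0 lower. The muscle group then stood at 12 and 0, the respiratory group at 27 and 1 and the storage group at 8 and 0. Neither line had libraries in both the first and the second set, so that part of the term comes from females of a line of Obp50b and a line of Obp50d, the only other groups split between those sets.

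Of 21 tested phototransduction genes of the eye, 7 were called higher in line 21 and none higher in line 5 (4 and 0 without J3_S53), with a median of 0.28. That share, 33.3%, was below the 43.8% of all genes at 100 to 300 CPM. The group's median level of 122 CPM lies in that bin. ninaE, which encodes the main rhodopsin, was at 1950 and 2160 CPM in line 21 females and 1450 CPM in the line 5 female. Male levels were 3160 and 2930 CPM in line 21 and 2210 and 1550 CPM in line 5 (0.60 ± 0.13; FDR 0.00181). The clock genes tim, Clk and vri were the 3 of 12 called, all higher in line 21 (3 and 0 also without J3_S53), with differences of 0.60 (FDR 0.000687), 0.71 (FDR 0.00193) and 0.56 (FDR 0.00135). With a median level of 67.5 CPM, the clock group's share of 25% was below the 32.3% of all genes at 30 to 100 CPM. Of 16 insulin signalling genes, 3 (18.8%) were called higher in line 21 and none higher in line 5 (2 and 0 without J3_S53). With a median level of 48.7 CPM, this group's share was also below the 32.3%.

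Of all genes at 10 to 30 CPM, 11% were called higher in line 21 and 3.45% higher in line 5. Cytochrome P450 genes, at a median of 13.1 CPM, were called higher in line 21 in 17 of 83 (20.5%). They were called higher in line 5 in 3 (3.61%), and the counts became 9 and 6 with size factors. Without J3_S53 they were 11 and 0. Glutathione S-transferases, at a median of 15.3 CPM, were called in 7 (20%) and 2 (5.71%) of 35 (9 and 0 without J3_S53). Among 87 cytosolic ribosomal protein genes 14 (16.1%) were called higher in line 21 and 1 higher in line 5. These counts were 6 and 3 with size factors and 11 and 3 without J3_S53. Their median level was 641 CPM, and 36.7% of all genes over 300 CPM were called higher in line 21. The 19 heat shock genes gave 5 (26.3%) and 3 (15.8%), both above the 15.3% and 6.56% of all genes (3 and 1 without J3_S53). For 29 antimicrobial peptide and related immune genes the counts were 3 (10.3%) and 1 (3.45%), and 3 and 0 without J3_S53. Their median level was 22.5 CPM, and those shares were near the ones of all genes at 10 to 30 CPM.

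**Figure D3:**
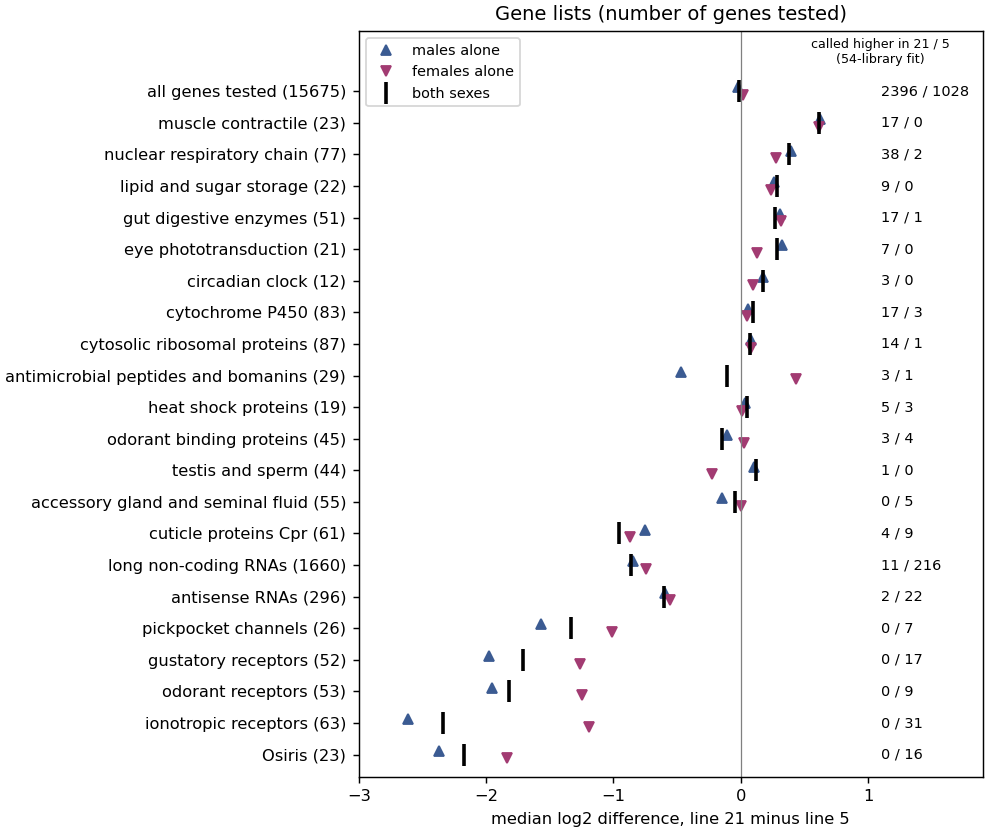
Median log2 difference (line 21 minus line 5) of selected gene groups on the horizontal axis, for both sexes (bar), males (upward triangle) and females (downward triangle), with the number of genes tested beside each name and the calls of the fit over 54 libraries at the right. Among the groups plotted muscle genes lie furthest right at 0.61 with 17 of 23 called, and ionotropic receptors furthest left at −2.34 with 31 of 63 called.

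Chemosensory receptors were higher in line 5. These are the membrane receptors with which sensory neurons detect odorants and tastants, and odorant-binding proteins act upstream of some of them. Of 194 tested odorant, gustatory and ionotropic receptors and pickpocket channels, 64 were called higher in line 5 and none higher in line 21, with a median difference of −1.82, at −2.25 in males and −1.17 in females. Without J3_S53 the counts were 22 and 0, and 69 and 0 with size factors. All 4 families are rare in whole flies, with a median level of 0.415 CPM in the other lines. The share called higher in line 5 was 33%, beside 16% of all genes at 0.3 to 1 CPM, which had a median of −1.05. By family the share was 49.2% for ionotropic, 32.7% for gustatory and 17% for odorant receptors, and 26.9% for pickpocket channels.

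Ionotropic receptors, relatives of glutamate receptors that detect acids, amines and tastants, contributed most. Of 63 tested, 31 were called higher in line 5 and none higher in line 21 (12 and 0 without J3_S53), and the median difference was −2.34. Their summed level was 67.1 and 72.7 CPM in line 21 females and 161 CPM in the line 5 female. In males the sums were 43.4 and 49.8 CPM in line 21 and 84.2 and 205 CPM in line 5, so that line 5 was above line 21 in both sexes. The other lines ranged from 43.2 to 412 CPM in females and 38.4 to 230 CPM in males and took in both lines. Ir60b, a taste receptor gene of the pharynx, was at 0.0732 and 0 CPM in line 21 females and 0.0719 and 0.0749 CPM in line 21 males, against 1.25, 1.62 and 4.94 CPM in line 5 (−5.21 ± 0.94; FDR 0.000328).

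Gustatory receptors were called higher in line 5 in 17 of 52 genes and higher in line 21 in none (7 and 0 without J3_S53), with a median of −1.71. Gr36c was at 0.0366 and 0.0989 CPM in line 21 females and 2.25 CPM in the line 5 female. Its males had 0.288 and 0.655 CPM in line 21 and 3.23 and 8.73 CPM in line 5 (−4.29 ± 1.03; FDR 0.00358). For odorant receptors the calls rested on J3_S53, with 9 of 53 higher in line 5 with it and 0 without it, and a median of −1.82 with it and −1.25 without it. Their summed level in males was 35.5 and 40.7 CPM in line 21, 48.9 CPM in 57_S47 and 112 CPM in J3_S53. Pickpocket channels, sodium channel subunits of sensory neurons, were called in 7 of 26, all higher in line 5 (3 without J3_S53).

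Odorant-binding proteins did not share that shift. Of 45 tested members, 3 were called higher in line 21 and 4 higher in line 5 (2 and 2 without J3_S53), and the median was −0.15. They are also less rare than the receptors, with a median level of 3.16 CPM against 0.415 CPM. All genes at 3 to 10 CPM had a median of −0.16, near that of this family. The abundant members Obp19d and Obp99c were higher in line 21 by 0.63 (FDR 0.0161) and 0.55 (FDR 0.0189), and the rare members Obp56c and Obp58c had differences of −1.99 (FDR 0.00295) and −4.11 (FDR 0.00567). For Obp19d the males overlapped, at 191 and 235 CPM in line 21 and 158 and 193 CPM in line 5.

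Osiris genes, a family of insect transmembrane proteins known for roles in forming the cuticle and tracheae, had the highest share of calls in favour of line 5. Of 23 tested, 16 were called higher in line 5 and none higher in line 21 (9 and 0 without J3_S53, 4 and 0 with library set as a term). The median difference was −2.17, at −2.37 in males and −1.84 in females. The share called higher in line 5 was 69.6%, beside 13.3% of all genes at 1 to 3 CPM, which had a median of −0.51. The group's median level of 2.3 CPM lies in that bin. Their summed level was 87.8 and 140 CPM in line 21 females against 371 CPM in the line 5 female and 263 CPM in 55_S45. The male sums were 24.2 and 27.6 CPM in line 21 and 82.2 and 78.7 CPM in line 5, so the line 5 males were close to each other here and apart from those of line 21. Females of the other lines ranged from 91.7 to 448 CPM, which took in the line 5 females and 1 of the line 21 females.

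Osi18 had 0.732 and 1.58 CPM in line 21 females and 12.7 CPM in the line 5 female, and 0.0360 and 0.281 CPM in line 21 males against 1.39 and 3.24 CPM in line 5 males (−3.55 ± 0.55; FDR 5.07e-05). Osi9 had 1.35 and 1.98 CPM against 10.2 CPM in females, and 0.863 and 1.74 CPM against 5.89 and 4.94 CPM in males (−2.31 ± 0.36; FDR 5.58e-05). Cuticle proteins of the Cpr family were split, with 9 of 61 (14.8%) called higher in line 5 and 4 (6.56%) higher in line 21. These counts became 1 and 4 without J3_S53. Their median level was 0.959 CPM, and the shares of all genes at 0.3 to 1 CPM were 16% and 0.538%.

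Long non-coding RNA genes were mostly higher in line 5. Of 1660 long non-coding RNA genes, 216 (13%) were called higher in line 5 and 11 (0.663%) higher in line 21, with a median of −0.86, and without J3_S53 the counts were 88 and 9. Their median level was 0.624 CPM in the other lines. All genes at 0.3 to 1 CPM had a median of −1.05, and 16% of them were called higher in line 5. Antisense RNA genes were called higher in line 5 in 22 of 296 (7.43%) and higher in line 21 in 2 (8 and 1 without J3_S53). Their median level of 0.497 CPM lies in the same bin, so the share higher in line 5 was below its 16%. Fragments were counted without regard to strand, so a gene and a partner on the opposite strand cannot be told apart. Small nucleolar RNAs, which guide the modification of ribosomal RNA, had a median of 0.38 (0.10 without J3_S53). Of 180 tested, 16 (8.89%) were called higher in line 21 and 1 (0.556%) higher in line 5 (8 and 2 without J3_S53). Both shares were below those of all genes, but the group's median level was 1.23 CPM. Of all genes at 1 to 3 CPM, 1.35% were called higher in line 21 and 13.3% higher in line 5, with a median of −0.51. The group thus went against genes at its level.

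**Figure D4:**
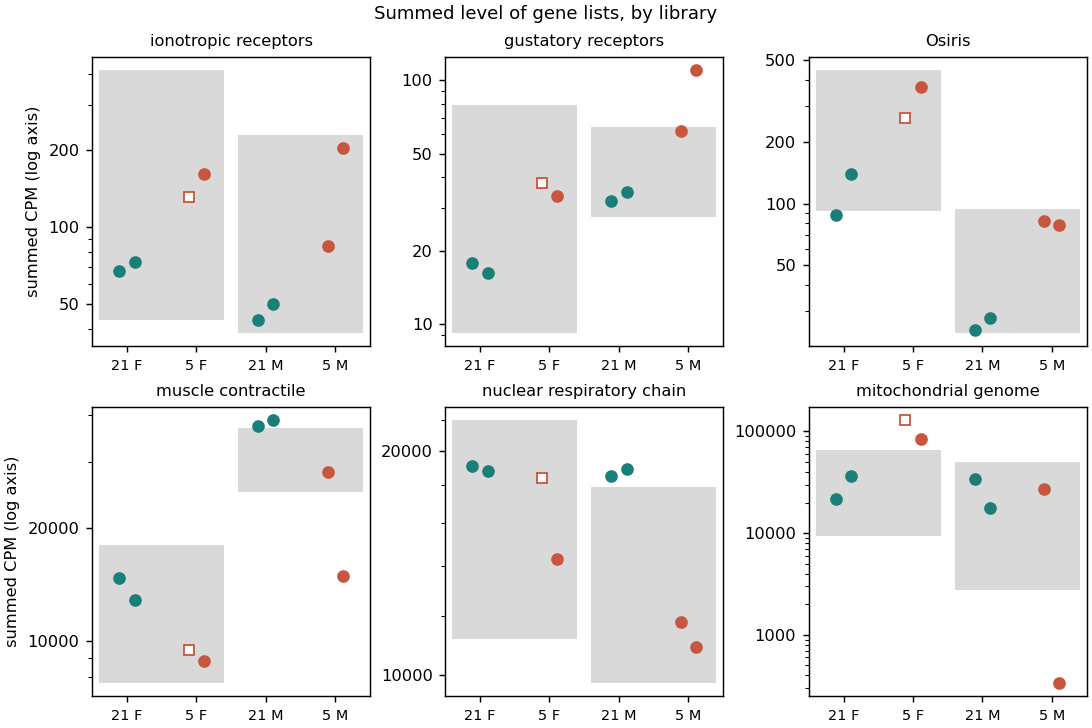
Summed CPM (log axes) of 6 gene groups by library, with line 21 in green, line 5 in red, 55_S45 as an open square and the range of the libraries of the other 12 lines in grey. The line 5 libraries compared are below line 21 of the same sex for muscle and nuclear respiratory genes and above it for ionotropic receptors, gustatory receptors and Osiris genes, and J3_S53 lies at 338 CPM for the mitochondrial genome.

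Among the genes higher in line 5 with the smallest p, CG33465 and CG31016 had large differences in 1 sex. CG33465 was at 0.252 to 0.512 CPM in the 4 line 21 libraries, at 3.82 CPM in the line 5 female, 15 CPM in 55_S45 and 123 and 442 CPM in the line 5 males. The males of the other 12 lines had means of 0.187 to 0.741 CPM, so line 5 males stood apart from all of them, whereas females of the other lines reached a line mean of 69.5 CPM (−6.47 ± 0.50 in the fit over 54 libraries; FDR 2.94e-10). CG31016 was at 0.658 and 0.593 CPM in line 21 females and at 81.3 CPM in the line 5 female and 116 CPM in 55_S45, where females of the other lines had at most 2.85 CPM as a line mean. Its males differed less, with 4.24 and 5.19 CPM in line 21 and 17.7 and 6.13 CPM in line 5. Sfp24Bc, a seminal fluid protein gene, was at 7.37 and 11.5 CPM in line 21 males and 57.9 and 30.0 CPM in line 5 males (−2.94 ± 0.48; FDR 0.000101). Of 55 seminal fluid and accessory gland genes, 5 (9.09%) were called higher in line 5, and 4 without J3_S53. The share of all genes was 6.56%, and that of genes at 30 to 100 CPM was 1.7%. The group's median level of 34.5 CPM lies in that bin. For Sfp26Ac and Sfp79B among them the lines overlapped.

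Whether the line difference was the same in males and females was tested by the interaction of sex and line. It was called for 28 of 15675 genes (0.179%), 14 in each direction, with 1667 genes at an unadjusted p under 0.05. The fit over 54 libraries called 66 (0.421%), DESeq2's Wald test 341 and limma-voom 0 (1141 at an unadjusted p under 0.05). Leaving out a line 21 library gave 0 calls in each of 4 fits, leaving out J3_S53 gave 333 and leaving out 57_S47 gave 2248. The only line 5 female in this test was 58_S48, so the female arm of each interaction rests on that library.

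The gene with the smallest interaction p was ms(3)76Cc, 1 of the genes whose mutants are male-sterile. It was at 57.2 and 63.9 CPM in line 21 females and 1.88 CPM in the line 5 female, with 0.816 CPM in 55_S45. Males were alike, with 96.2 and 95.7 CPM in line 21 and 91.5 and 57.9 CPM in line 5. The line difference was 4.98 in females and 0.23 in males (interaction −4.72; FDR 0.0236). Line means of the other females reached 20.8 CPM, so the female level of line 21 was the one outside their range.

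LysE, a lysozyme gene of the digestive type, was lower in line 21 females at 21.5 and 23.2 CPM than in the line 5 females at 124 CPM and, left out, 62.7 CPM. In males it was at 27.1 and 25.1 CPM in line 21 and 21.8 and 17.6 CPM in line 5 (interaction 2.79; FDR 0.0236). Shc, an adaptor of receptor tyrosine kinase signalling, overlapped in females at 44.5, 48.5 and 44.3 CPM. Its males had 22 and 19.2 CPM in line 21 and 192 and 148 CPM in line 5 (interaction −3.20; FDR 0.0236). In the fit over 54 libraries the interaction of Shc was of the same size and did not pass (FDR 0.347), while those of ms(3)76Cc, LysE and CG34002 did. CG34002 was at 0.585 and 0.560 CPM in line 21 females and 10.3 CPM in the line 5 female, with 1.17 CPM in 55_S45, and its males overlapped (interaction 4.57; FDR 0.0236). The female difference of CG34002 thus rested on 58_S48 alone.

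Part of the 28 were genes with a large difference between the sexes. Genes were classed as sex-biased where the other lines differed at least 16-fold between the sexes, a class set after the data were seen. Of the 28, 6 were female-biased: Pxt, wisp, fs(1)M3, Mur11Da, CG11674 and CG15721, and each was higher in both line 5 males than in both line 21 males. For example wisp, which encodes a poly(A) polymerase of the female germ line, was at 2.27 and 2.81 CPM in line 21 males and 21.9 and 13.2 CPM in line 5 males, and at 495, 404 and 219 CPM in the females. Pxt, a peroxidase gene needed for egg production, was at 0.899 and 0.880 CPM in line 21 males and 9.79 and 5.67 CPM in line 5 males.

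Over all 176 female-biased genes the median line difference was −2.08 in males and 0.10 in females. Their summed level was 382 and 299 CPM in line 21 males, 1423 CPM in 57_S47 and 558 CPM in J3_S53, and 266 to 5694 CPM (median 325) in males of the other lines. The yolk protein genes, which mark female fat body and ovary, summed to 457 unscaled CPM in 57_S47, 24.0 in J3_S53 and 21.7 to 57 in line 21 males. Female transcripts were thus most abundant in 57_S47 among the 4 males, and their part in the interaction was not tested. The converse class, 1750 male-biased genes, had a median of −0.69 in females and 0.05 in males, and summed to 876 and 746 CPM in line 21 females, 1090 CPM in 58_S48 and 650 to 2852 CPM in females of the other lines. Another 6 of the 28 genes were male-biased (salto, CG32548, CG34002, CG15708, sut4 and ms(3)76Cc) and 16 belonged to neither class.

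**Figure D5:**
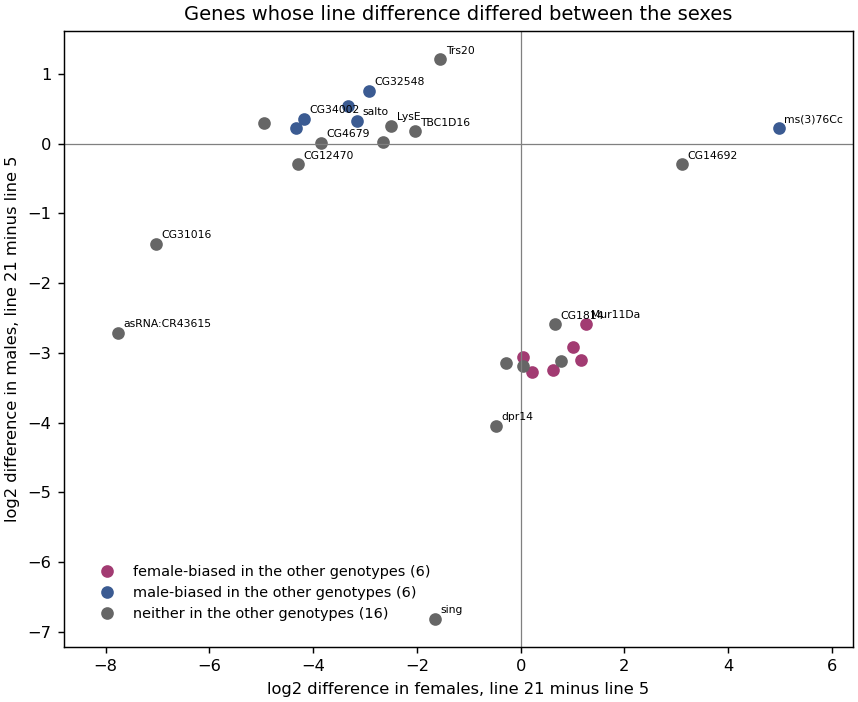
Line difference (log2, line 21 minus line 5) in males on the vertical axis against that in females on the horizontal axis, 1 point for each of the 28 genes called for the interaction of sex and line, coloured by sex-bias class. The 6 female-biased genes lie below 0 in males, and ms(3)76Cc lies at 4.98 in females and 0.23 in males.

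Each line was also set against the 12 lines of other genotypes, to show which of them lay apart. Line 21 differed from their mean in 2105 genes (13.4%), 1700 of them higher in line 21 (10.8%), and line 5 in 2479 genes (15.8%), 1131 of them higher in line 5 (7.22%). With size factors the share of calls that were higher fell from 80.8% to 61.6% for line 21 and rose from 45.6% to 60.7% for line 5. The comparisons share the 12 lines, so their values are given only side by side. Without J3_S53 the count for line 5 was 495, and without 57_S47 it was 5025. The genotypes differ as well as the lines in these contrasts, and neither line's difference can be told apart from the effect of Obp50cBCD.

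By gene group, muscle genes had a median of 0.33 in line 21 and −0.30 in line 5 against the other lines, and nuclear respiratory genes had 0.21 and −0.10. Ionotropic receptors had −0.54 and 1.30, and Osiris genes −0.63 and 1.29. All genes had medians of 0.01 in line 21 and −0.05 in line 5, so for nuclear respiratory genes line 5 lay close to all genes. The summed levels of ionotropic receptors in both lines were within the range of the other lines' libraries.

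Called genes were spread over the genome. In the fit over 54 libraries the share called was 20.1% on 2L, 22.4% on 2R, 21.5% on 3L, 23.3% on 3R and 21.2% on X, and 28 of 105 genes on chromosome 4 were called. In windows of 500000 bases, none of 271 had at least 5 genes called that made up 50% or more of its tested genes. On 2R, the arm of the Obp50 cluster, the share called was within the range of the other large arms.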

How the data were processed

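Whole-fly RNA was sequenced from pools of 30 mated adults after depletion of ribosomal RNA. The authors trimmed and filtered the reads with AfterQC, aligned them to Drosophila melanogaster release 6 with GSNAP, and counted unique alignments over exons with featureCounts 1.6.4 on its FlyBase annotation, release 6.13, without regard to strand. They deposited raw counts per gene with no normalization, and these counts were used here as deposited. The deposited gene lengths (another column of the files) were not used.

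Over the 54 libraries that the study kept, genes needed counts above 0 in 25% or more of them and a median count of 2 or more, which left 15675 of 17490. Line 21 and line 5 were compared with edgeR 4.0.16 (R 4.3.3), as a quasi-likelihood test on TMM-scaled counts with sex as a block and Benjamini-Hochberg adjustment over all genes kept, called at an FDR under 0.05. The interaction of sex and line was tested in the same 7 libraries. The contrasts of each line with the 12 other lines, both sexes weighted equally, and the alternative test of line 21 against line 5, used 1 fit with a mean for each sex and line over the 54 libraries. Every adjusted p in the text comes from edgeR unless another tool is named. SE values are those of the fitted log2 difference. The fit over the 7 libraries was also run on simulated counts with known line differences, and no result of that run is used here. DESeq2 1.42.0, limma 3.58.1, Python 3.11.15, pandas 2.3.3, numpy 2.4.6 and matplotlib 3.10.9 were also used.

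Groups came from the labels. The labels state 2 biological replicates per line and sex, each a pool, so p-values measure the spread between pools. Counts of replicate libraries differed by more than sampling noise. Depth ran from 14638498 to 53517693 counts per library, and intervals on counts cover counting error only. The rule for named genes took the Obp50 cluster and its flanks, the called genes that did not overlap between the lines in either sex (up to 12 in each direction by size), up to 4 called members of each gene list, and the 4 genes with the smallest interaction p. Other named genes were chosen after their values were seen. The members and lists were chosen with earlier results of these data known. Alternatives were other scaling, no or a stricter filter, library set as a term, DESeq2, limma-voom, a robust fit, each sex alone, 55_S45 added and each library left out.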

Additional observations from a re-analysis of the deposited data

Results flagged for a closer look

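For 28 genes the line difference itself differed between males and females at an FDR under 0.05 in edgeR's test of the interaction of sex and line. Each value below is the male minus the female line difference on the log2 scale, and each female difference rests on 58_S48 as the only line 5 female. It was negative, with line 21 lower relative to line 5 in males than in females, for ms(3)76Cc (−4.72), CG15721 (−4.24), wisp (−3.89), ndl (−3.85), Pxt (−3.83), Mur11Da (−3.75), dpr14 (−3.52), fs(1)M3 (−3.44), CG14692 (−3.38), CG1814 (−3.21), Shc (−3.20), CG11674 (−3.09), l(3)72Dp (−2.83) and sing (−5.10). It was positive for CG31016 (5.63), CG34447 (5.30), asRNA:CR43615 (5.07), CG15708 (4.60), CG34002 (4.57), CG12470 (4.04), sut4 (3.90), CG4679 (3.89), CG32548 (3.71), salto (3.51), Trs20 (2.79), LysE (2.79), Corin (2.71) and TBC1D16 (2.27).

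Among these, asRNA:CR43615 had 0.402 and 0.231 CPM in line 21 females, 67.6 CPM in the line 5 female and 13.1 CPM in 55_S45. CG4679 had 527 and 420 CPM in line 21 females, 6670 CPM in the line 5 female and 2090 CPM in 55_S45, and its males lay between 197 and 283 CPM in both lines. The gene sing, whose product acts in myoblast fusion, had 0.468 and 0.206 CPM in line 21 males and 33.5 and 29.8 CPM in line 5 males.

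The library 55_S45, which is outside the comparison, held lncRNA:CR45216 at 52.9 CPM, where no line of the other genotypes had a female mean above 0.585 CPM.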

How the results depend on the processing

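The count of 6 genes called between line 21 and line 5 was 6 with DESeq2's size factors and without a filter, 7 with a robust fit and 3 with a mean count of at least 10. In males alone it was 4, and none of the 6 was among them. The other alternatives gave more: 3424 in 1 fit over 54 libraries, 1882 with library set as a term in it, 129 with 55_S45 added, 1972 with DESeq2's Wald test, 273 with limma-voom and 2761 in females alone. Leaving out 1 library gave 0 (25_S42) to 1122 (57_S47). No alternative turned the direction of any of the 6 genes, and the largest number of the 26 alternatives in which one was no longer called was 7 (Mpcp1).

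In the fit over 54 libraries the lowest and highest counts with 1 library left out were 2148 (J3_S53) and 5021 (57_S47). Leaving libraries out of that fit, adding 55_S45 to it (4457) and rescaling it (2748) were chosen after seeing the data, as were the level bins and sex-bias classes.

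The 28 interaction calls became 66 in the fit over 54 libraries, 59 with 55_S45, 341 with DESeq2's Wald test, 0 with limma-voom (1141 at an unadjusted p under 0.05) and 0 to 2248 with 1 library left out. For line 21 against the other 12 lines leaving out a library gave 628 (26_S43) to 2191 (J3_S53), with 733 without 27_S44 and 1369 without 25_S42 against 2105. For line 5 the count of 2479 became 847 with library set as a term, 4770 with 55_S45, and 495 (J3_S53) to 5025 (57_S47). The causes were not tested.

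No paired analysis was possible because the labels carry library numbers and no replicate number shared between the lines. With 1 line 5 female and 4 residual degrees of freedom, differences in genes under about 1 CPM were often not detectable at this depth.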

Other observations

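Turandot genes, which encode secreted proteins induced by stress, were high in 1 library. The 6 tested genes summed to 849 CPM in the line 21 female 25_S42 and 87.8 CPM in its replicate 26_S43, against 41.4 CPM in 58_S48 and 76.6 CPM in 55_S45. Males were at 58.9 and 79.4 CPM in line 21 and 56.3 and 32.6 CPM in line 5. Of the 6 genes, 2 were called higher in line 21 in the fit over 54 libraries and 0 without J3_S53.

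Pickpocket channels summed to 475 CPM in 55_S45 and to 78.6 CPM in 58_S48, the line 5 female compared, and the females of the other lines ranged from 25 to 354 CPM. Yolk protein genes and chorion genes had no called member in the test over 7 libraries or the fit over 54, and their sums in line 21 females (29000 and 37000 CPM, and 14700 and 19500 CPM) and in 58_S48 (21200 and 12400 CPM) are values of 2 pools and 1 pool.

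Among genes of neither sex class that were chosen after their values were seen, Zip102B, which encodes a zinc transporter, was at 163 and 444 CPM in line 5 males and 36.3 and 37.9 CPM in line 21 males. In females it was at 52.7 CPM in line 5 and 44.7 and 42.6 CPM in line 21. Syx4, a syntaxin gene, was at 10.4 to 20.1 CPM in line 21 and 40.3, 45.3 and 135 CPM in line 5.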
